A study of Mus musculus with 36 samples.

Results

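H3K4me3 regions that appeared in mouse embryonic stem cells after 3 passages in 2i medium are described here. The authors' H3K4me3 peaks of serum cells, of cells 24 h into 2i and of cells kept in it for 3 passages were merged wherever they shared at least 1 bp, on chromosomes 1 to 19 and X. A region was a member when it held a peak of the 3 passage list and none of the serum list. Of 23044 merged regions, 2993 were members, or 13.0%, and 304 of them were also called at 24 h while 2689 were not. Members were thus chosen by the presence or absence of H3K4me3 peaks in these lists, so their H3K4me3 values are given as a description with no test.

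The cells were KH2, an established mouse embryonic stem cell line, grown in serum medium with LIF on a layer of irradiated mouse embryonic fibroblasts, or moved to 2i medium with LIF for 24 h or for 3 passages. The labels hold 2 H3K4me3 samples for each condition, 2 samples each for Nanog of the first antibody lot in the 3 conditions and for Sox2 in serum and at 24 h, and 1 sample each for Sox2 at 3 passages, Oct4 in serum and Oct4 at 24 h. Nanog of a second antibody lot was taken from 1 sample of serum cells labelled GFP_high and 1 sample of KH2 cells at 24 h, and from 1 sample of DNMT triple knockout (TKO) cells at 24 h. Each of these 14 sets of samples was represented by 1 deposited list of peaks, so the spread between replicates is unknown for every comparison below, and no test between conditions was made. A peak that is present in some of the cells and a weaker peak in all of them cannot be told apart in such lists.

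H3K4me3, trimethylation of lysine 4 of histone H3, is placed by methyltransferases of the SET1 and MLL complexes and is found mainly at active and poised promoters, where it is widest over CpG islands. Weaker and narrower H3K4me3 is also known at strong enhancers. Oct4, the product of Pou5f1, and Sox2 bind DNA side by side at many enhancers of pluripotent cells, and Nanog, a homeodomain protein, joins them at a large share of these sites. 2i blocks the kinases MEK and GSK3 and holds the cells in a uniform naive state. The question for the new regions was whether the factors had been there before the mark, arrived with 2i, or were absent.

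The new H3K4me3 was weak and narrow compared with constant H3K4me3, which is defined here as the 13233 regions called in all 3 lists. The median width was 599 bp in new and 1983 bp in constant regions, against 1242 bp for all peaks of the 3 passage list. Width spans all merged peaks of a region, and constant regions join peaks of 3 lists, so the classes fix part of this order. Fold enrichment over the control, the authors' value for a peak, had a median of 5.91 at 3 passages in the new regions, with the middle 50% between 5.07 and 6.99, and a median of 13.2 in the constant ones. Only 68 new regions exceeded the constant median. New regions called at 24 h were wider, with a median of 772 bp against 578 bp for those not called at 24 h. The regions called at 24 h also join peaks of more lists than the others, which fixes part of this width order. The median folds at 3 passages were 6.38 and 5.87.

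Many of the new regions lay near the edge of what the lists hold. The lowest −log10 q of a new region was 14.3, which is the lowest of the whole 3 passage list, and 1585 new regions (53.0%) lay below 20, against 15.4% of all 3 passage peaks. The serum list reached down to 10.5 and the 24 h list to 4.91, but −log10 q need not be on one scale between lists. The median over a whole list was 68.7 in serum, 26.2 at 24 h and 68.5 at 3 passages. The 304 regions called at 24 h had a median −log10 q of 7.15 there, also near that list's end. On the side of position, 191 new regions, or 6.38% (5.53 to 7.32), came within 200 bp of a serum region, against 8.16% of all merged regions. The smallest gap was 0 bp. Further, 30 peaks of the 3 passage list met a serum peak by at most 200 bp, the smallest overlap being 12 bp. The call at 24 h was the value that moved most with the threshold. Over all merged regions 66.5% were called at 24 h, a share that the rule for new regions helps to fix, and of the new regions 10.2% were (95% interval 9.10 to 11.3, exact binomial, counting error only, as for all shares below). With all 3 lists at the same length it was 16.4%, and with a minimum −log10 q of 10 it fell to 2.44%.

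**Figure D1:**
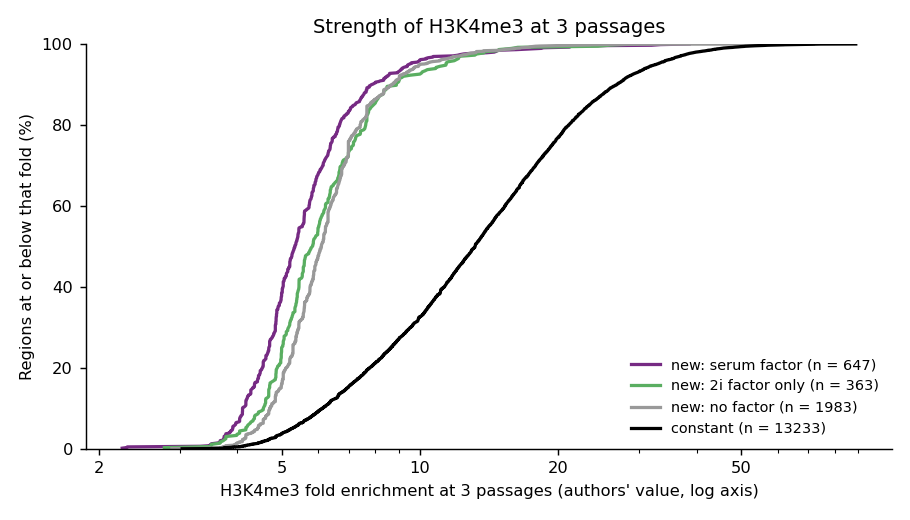
Share of regions (y axis, percent) at or below a given H3K4me3 fold enrichment at 3 passages (x axis, the authors' value, log axis) for new regions with a serum factor peak, with a factor peak in 2i only and without a factor peak, and for constant regions. The 3 curves of new regions lie to the left of the constant one, with medians of 5.35, 5.85 and 6.10 against 13.2.

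Factor binding sorted the new regions into 3 classes. A serum peak of Nanog, Sox2 or Oct4 was present at 647 new regions, or 21.6% (20.2 to 23.1), which is called prior binding here. At 363 regions, or 12.1% (11.0 to 13.4), no factor was called in serum but at least 1 was called in 2i. The other 1983, or 66.3% (64.5 to 67.9), held no factor peak in any of the 8 lists used. Over all merged H3K4me3 regions the shares were 18.5%, 11.0% and 70.5%, so the classes alone stood close to the background. Constant regions, which are wider, had nearly the same division, at 21.3% (20.6 to 22.0), 13.6% (13.0 to 14.2) and 65.1% (64.3 to 65.9). The 4561 regions called in serum and not at 3 passages, called lost below, had 9.87% (9.02 to 10.8), 4.12% (3.56 to 4.74) and 86.0% (85.0 to 87.0).

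Of the 647 regions with prior binding, 609 also held a factor peak in 2i and 38 did not. These were 20.3% and 1.27% of the new regions, against 15.7% and 2.75% of all merged regions. Serum Nanog, whose list is the longest of the serum factor lists, was present at most of them. It was alone at 211, with Sox2 at 181, with Oct4 at 40, and with both at 158, which is 5.28% of new and 2.66% of all merged regions. Sox2 was alone at 36 regions, Oct4 alone at 9, and the pair of Sox2 and Oct4 without Nanog was found at 12.

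**Figure D2:**
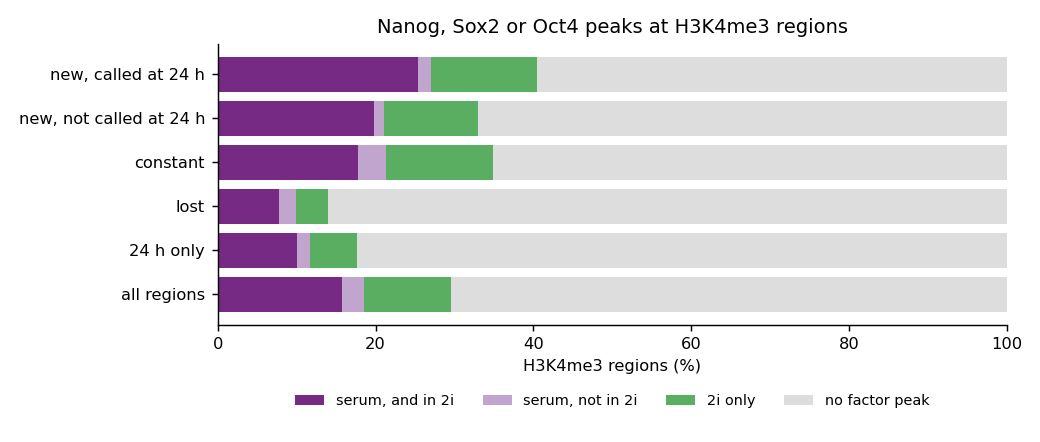
Percent of H3K4me3 regions (x axis) with a Nanog, Sox2 or Oct4 peak in serum and in 2i, in serum and not in 2i, in 2i only, or with none, for each set of regions (y axis). The grey part, without a factor peak, covers 59.5% of new regions called at 24 h, 67.01% of those not called at 24 h, 65.1% of constant and 86.0% of lost regions.

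By overlap, the intervals of the early and the late new regions stood narrowly apart for the share without a factor, while for the other classes they overlap. Prior binding was found at 82 of the 304 called at 24 h, or 26.97% (22.1 to 32.3), and at 565 of the 2689 not called, or 21.0% (19.5 to 22.6). Binding in 2i only was found at 41, or 13.5% (9.86 to 17.8), and at 322, or 12.0% (10.8 to 13.3). The intervals of both pairs overlap. Regions without a factor made up 59.5% (53.8 to 65.1) of the early and 67.01% (65.2 to 68.8) of the late ones, where the intervals just fail to overlap. The early regions were also wider, with a median of 772 bp against 578 bp, and a wide region meets more peaks. When a factor summit within 250 bp of the H3K4me3 summit was required, the shares were 82.2% (77.5 to 86.4) and 86.6% (85.3 to 87.9). Those intervals overlap.

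Nanog, whose lists are the longest in each condition, was the factor found most often at the new regions, as it was over all merged regions. Its serum peaks met 590 of them, or 19.7% (18.3 to 21.2), against 15.1% of all merged regions. At 24 h its peaks met 820, or 27.4% (25.8 to 29.0), against 24.1%, and at 3 passages 800, or 26.7% (25.2 to 28.4), against 14.3%. Constant regions fell from 29.0% with Nanog at 24 h to 14.2% at 3 passages, while the share in the new regions stayed level. The 3 passage list is also the shorter of these 2 Nanog lists, with 33184 against 41729 peaks. With the Nanog lists at equal length, constant regions had 14.3% at 24 h and 10.3% at 3 passages. New regions then had 20.4% and 23.1%. Nanog was called in all 3 conditions at 513 new regions, or 17.1% (15.8 to 18.5), against 9.82% of all merged regions. It was called at 24 h and 3 passages but not in serum at 178, or 5.95% (5.13 to 6.86), against 3.06%. Nanog at 3 passages only was found at 96, or 3.21% (2.61 to 3.90), against 1.21%. The order was the opposite for Nanog at 24 h only, with 90 new regions, or 3.01% (2.42 to 3.68), against 7.54%. Of the 590 regions with serum Nanog, 565 kept a Nanog peak in 2i, or 95.8% (93.8 to 97.2), against 90.9% (89.6 to 92.1) in constant regions.

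With the second Nanog lot, new regions stood well above constant ones in GFP-high serum and in KH2 cells at 24 h, and close to them in TKO cells. Its GFP-high serum list met 643 new regions, or 21.5% (20.02 to 23.0), against 10.9% of all merged regions and 10.3% of constant ones. Its 24 h list met 616, or 20.6% (19.1 to 22.1), against 8.39% and 7.33%, whereas with lot 1 at 24 h constant regions had the higher share. In TKO cells at 24 h it met 785 new regions, or 26.2% (24.7 to 27.8), against 21.2% of all merged and 25.3% (24.6 to 26.1) of constant regions, with overlapping intervals. The lists differ in length. At 24 h there were 21893 peaks with lot 2, 41729 with lot 1 and 38516 in TKO cells. Limited to its 25513 peaks of highest −log10 q, the lot 1 list at 24 h met 20.4% of new and 14.3% of constant regions. The part of list length in the differences between these lists was not tested. Lot 2 also bears on what counts as prior binding. Of the 363 regions with a factor in 2i only, 115 held a Nanog peak in GFP-high serum cells, or 31.7% (26.9 to 36.7), which leaves 248 with no serum factor peak in either lot. The GFP-high list differs from the lot 1 serum list in antibody lot and in the label of its cells, which cannot be told apart. With lot 2 counted for both media, prior binding rose to 26.7% and binding in 2i only fell to 8.79%.

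Sox2 showed the widest gap between new and constant regions in how often a serum peak was kept, although within new regions it was kept less often than Nanog. Serum Sox2 peaks met 387 new regions, or 12.9% (11.7 to 14.2), against 9.79% of all merged regions. In 2i the shares were 13.3% (12.1 to 14.6) at 24 h, against 6.81%, and 11.3% (10.2 to 12.5) at 3 passages, against 4.86%. The Sox2 list of 24 h reached down to a −log10 q of 3.69 and that of serum to 17.3. With a minimum of 10 in all lists, Sox2 met 12.9% of new regions in serum, 8.55% at 24 h and 9.69% at 3 passages. Constant regions then had 10.7%, 3.12% and 3.21%. The shares kept and called in 2i only were not computed at that minimum. Of the 387 regions with serum Sox2, 318 held a Sox2 peak in 2i, or 82.2% (78.0 to 85.9). In constant regions 737 of 1419 did, or 51.9% (49.3 to 54.6), and in lost regions 127 of 249, or 51.0% (44.6 to 57.4). The serum Sox2 peaks in new regions had a higher median fold than those in constant regions, 10.8 against 7.85, and the part of this in the share kept was not tested. Sox2 peaks were called in all 3 conditions at 246 new regions, or 8.22% (7.26 to 9.26), against 3.78% of all merged regions. They were called in 2i only at 137, or 4.58% (3.86 to 5.39), against 1.79%.

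Oct4, mapped in serum and at 24 h, met 219 new regions in serum, or 7.32% (6.41 to 8.31), and 302 at 24 h, or 10.1% (9.03 to 11.2). Over all merged regions these shares were 3.85% and 4.57%, and over constant regions 3.66% (3.34 to 3.99) and 4.22% (3.88 to 4.57). Oct4 was called in both media at 185 new regions, or 6.18% (5.34 to 7.10), against 2.98% of all merged regions, and at 24 h only at 117, or 3.91% (3.24 to 4.67), against 1.59%. Oct4 in serum only was found at 34, or 1.14% (0.788 to 1.58), against 0.872%, which lies inside that interval. Regions with serum Oct4 kept it at 24 h in 84.5% (79.0 to 89.0) of new and 75.2% (71.1 to 79.0) of constant regions.

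All 3 factors were called together both in serum and at 24 h at 130 new regions, or 4.34% (3.64 to 5.14), against 2.06% of all merged and 1.90% (1.67 to 2.14) of constant regions. Of these 130, 122 also held both Nanog and Sox2 at 3 passages, 19 were called for H3K4me3 at 24 h, and 17 lay within 1 kb of constant H3K4me3. Their H3K4me3 was weak, with a median fold of 5.02 at 3 passages and a range from 3.52 to 38.6. One of them, chosen after its values were seen, lay on chromosome 8 from 80589968 to 80592103, 438579 bp from the nearest constant region. Its Nanog folds were 97.2 in serum, 64.3 at 24 h and 53.7 at 3 passages, its Sox2 folds 47.4, 29.1 and 23.3, and its Oct4 folds 22.1 and 30.1, while H3K4me3 at 3 passages had a fold of 12.9. All 3 factors were thus already called there in serum, before H3K4me3 was.

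Width affects such shares, because a wide region meets more peaks. A second measure asked for a factor summit within 250 bp of the H3K4me3 summit, a window of the same size for every region. Such a window takes in a larger part of a narrow region than of a wide one. The comparison of new with constant regions is therefore not free of width by this measure either. By it, new regions held more of each of the 8 factor lists than constant ones. This was not particular to new regions. Those called at 24 h only, which are also narrow, exceeded constant ones in every list but Nanog at 24 h, where they had 4.16% (2.98 to 5.65). They had 4.27% (3.07 to 5.77) for serum Nanog and 4.27% (3.07 to 5.77) for Sox2 at 24 h. For Nanog the shares were 5.71% (4.91 to 6.61) of new and 2.98% (2.70 to 3.29) of constant regions in serum, against 3.22% of all merged regions. At 3 passages they were 7.89% (6.94 to 8.91) and 2.13% (1.89 to 2.39), against 2.91%. At 24 h the Nanog shares were 7.95% (7.01 to 8.98) and 5.14% (4.77 to 5.53), against 5.11%. For Sox2 the shares were 3.41% (2.79 to 4.12) and 1.96% (1.74 to 2.22) in serum, against 2.08%, and 2.97% (2.39 to 3.65) and 0.469% (0.359 to 0.6002) at 3 passages, against 0.846%. For Oct4 in serum they were 2.37% (1.86 to 2.98) and 0.650% (0.520 to 0.802), against 0.855%. For Sox2 at 24 h they were 4.71% (3.98 to 5.53) and 0.975% (0.815 to 1.16), against 1.56%, and for Oct4 at 24 h 2.87% (2.30 to 3.54) and 0.620% (0.493 to 0.769), against 0.903%. Prior binding by this measure was found at 226 new regions, or 7.55% (6.63 to 8.56), against 4.74% of all merged regions, and binding in 2i only at 187, or 6.25% (5.41 to 7.18), against 3.70%.

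**Figure D3:**
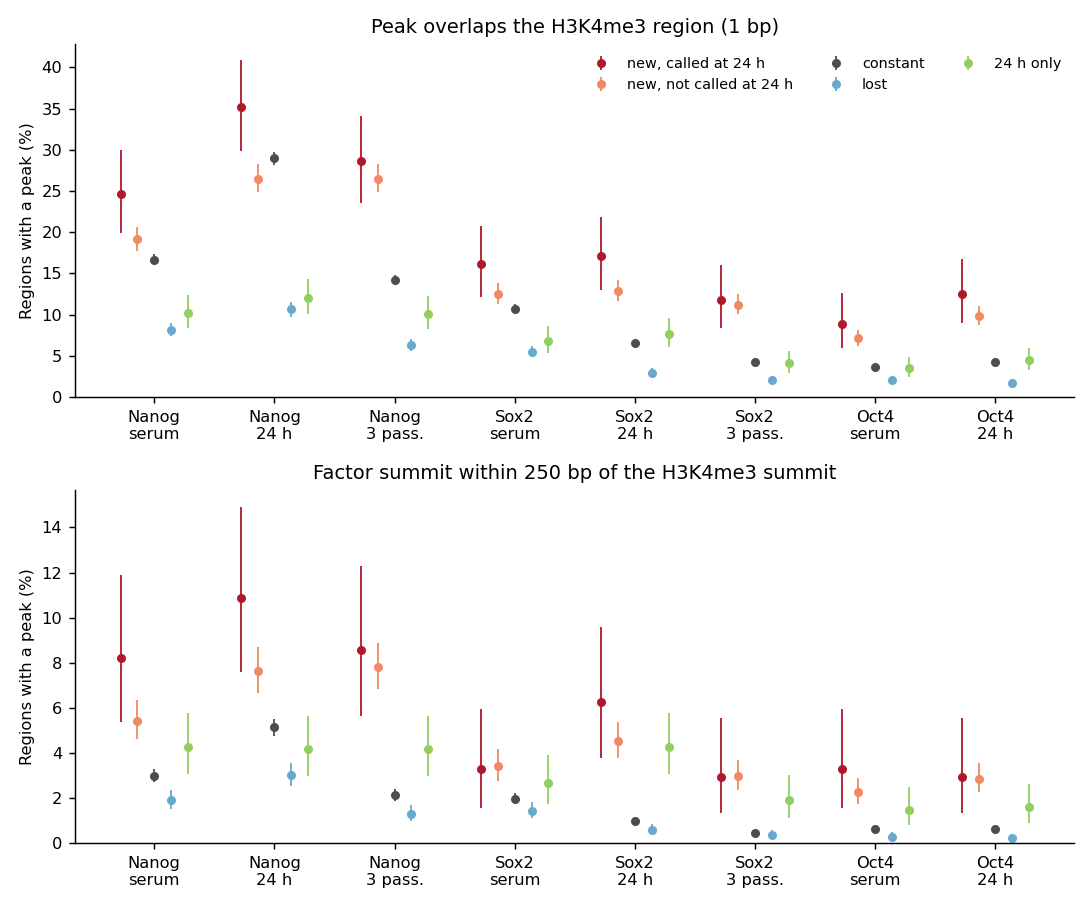
Percent of H3K4me3 regions (y axis) with a peak of each factor list (x axis), by overlap of 1 bp (upper panel) and by a factor summit within 250 bp of the H3K4me3 summit (lower panel), with exact binomial 95% intervals that cover counting error only. In the lower panel both sets of new regions lie above the constant and lost regions in every list; in the upper panel the late new regions fall below the constant ones for Nanog at 24 h, at 26.5% against 29.0%.

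The factor summits did not sit on the H3K4me3 summit. In new regions with a peak, the distance from the summit of the strongest factor peak to that of H3K4me3 at 3 passages had medians from 334 bp for Sox2 at 24 h to 384.5 bp for Nanog in serum. In constant regions they ran from 532 bp for Nanog at 24 h to 726 bp for Sox2 at 3 passages. The width of a region bounds these distances, and constant regions are wider, so the offsets of the 2 sets cannot be compared as such. A factor summit within 250 bp was found at 35.1% (30.4 to 39.99) of the new regions with Sox2 at 24 h, and at 26.1% to 32.4% of those with a peak of the other 7 lists.

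Factor peaks at the new regions were strong for their lists. Serum Nanog peaks there had a median fold of 14.1 (95% interval of the median 12.8 to 15.4, from exact binomial ranks). The whole list had 12.1 and its peaks in constant regions 8.65 (8.41 to 8.79). At 3 passages the Nanog medians were 11.0 (10.2 to 11.8), 8.90 and 6.83 (6.60 to 7.04). For Sox2 at 24 h the median was 6.99 (6.33 to 7.60) at new and 5.39 (5.20 to 5.67) at constant regions. For serum Oct4 it was 19.2 (17.6 to 21.2) at new regions, against 18.4 in the whole list, whose value lies inside that interval. Of the Nanog peaks of 3 passages in new regions, 36.3% were among the strongest 25% of their list.

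**Figure D4:**
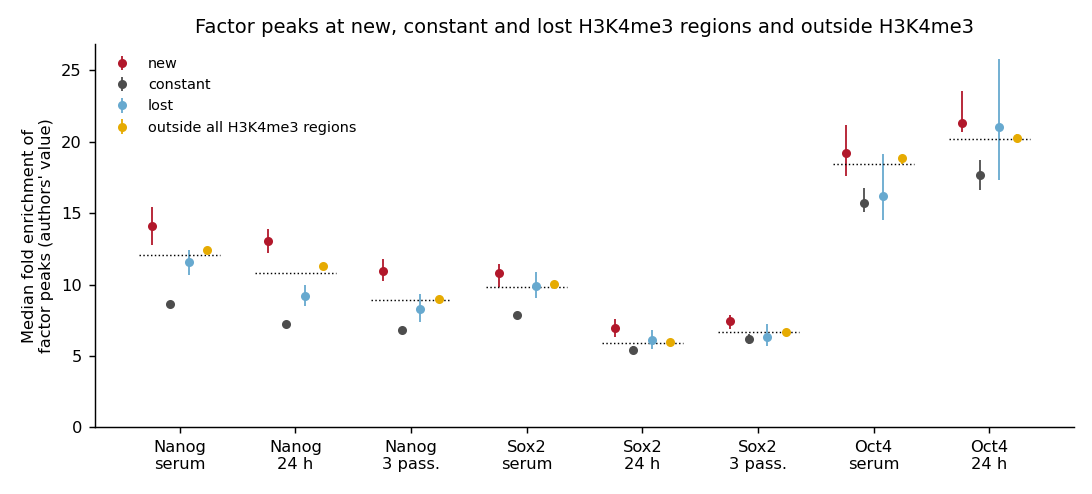
Median fold enrichment of factor peaks (y axis, the authors' values) in new, constant and lost H3K4me3 regions and outside all H3K4me3 regions, for each factor list (x axis), with 95% intervals of the median from exact binomial ranks. The dotted line is the median of the list; peaks at new regions lie above it in all 8 lists, and peaks at constant regions below it.

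Seen from the factors, the new regions took up a small part of the binding outside serum H3K4me3. Of 4389 serum Oct4 peaks that met no serum H3K4me3 region, 187 fell in a new one, or 4.26% (3.68 to 4.90). The share was 3.11% (2.79 to 3.44) for serum Sox2, with 350 of 11266 peaks, and 2.38% (2.19 to 2.59) for serum Nanog, with 539 of 22649.

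Where binding was called in 2i only, Nanog was involved at 336 of the 363 regions and was the only factor at 279, or 76.9% (72.2 to 81.1). Sox2 was called at 58 and Oct4 at 32. The Nanog lists of 2i held 41729 and 33184 peaks, those of Sox2 15268 and 8749, and Oct4 at 24 h 7820. The part of these lengths in the counts was not tested, and no such division over all merged regions was made. A factor was called at 24 h at 270 of the 363 regions, 165 of them also at 3 passages, and 93 had a factor at 3 passages only. Among the 322 such regions without H3K4me3 at 24 h, 236 nevertheless had a factor peak at 24 h, or 73.3% (68.1 to 78.0), and 86 had both factor and mark called at 3 passages and neither before. Counting prior binding too, 752 of the 2689 regions without H3K4me3 at 24 h held a factor at that time, or 28.0% (26.3 to 29.7). That share was 25.3% over all merged regions and 30.2% (29.5 to 31.0) over constant ones, so it was not above that of regions marked in every list.

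The regions without a factor peak had higher H3K4me3 folds than those with prior binding, while their interval overlaps that of regions bound in 2i only. Their median at 3 passages was 6.10 (6.02 to 6.18), against 5.85 (5.58 to 6.04) with binding in 2i only and 5.35 (5.21 to 5.45) with prior binding, and they were narrower, with median widths of 553, 732 and 676 bp. Of these 1983 regions, 38 held a lot 2 Nanog peak in GFP-high serum, 26 in KH2 cells at 24 h and 130 in TKO cells. A factor peak lay within 1 kb beyond the edge at 247 of them, or 12.5% (11.0 to 14.0), and within 5 kb at 750, or 37.8% (35.7 to 39.998). For constant regions without a factor the shares were 7.50% (6.95 to 8.08) and 28.0% (27.02 to 28.9), and for lost ones 6.73% (5.97 to 7.56) and 25.5% (24.1 to 26.9). These distances run from the edge, and a peak beside a narrow region can fall inside a wide one. The sets differ in width, so their shares cannot be compared as such. No share over all merged regions without a factor was taken.

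By the median, the new regions lay about as far from constant H3K4me3 as constant regions lie from each other. More of the new regions lay far out, beyond 100 kb. The median gap was 28.0 kb for new regions, at 27991 bp (26066 to 29870), 25458 bp (24649 to 26267) between constant ones, and 31274 bp (29494 to 33162) for lost ones. Regions called at 24 h only were far out, at 160195 bp (120435 to 190241). Within 1 kb of a constant region there were 367 new regions, or 12.3% (11.1 to 13.5), against 10.2% of all merged regions. Within 20 kb there were 1281, or 42.8% (41.0 to 44.6), against 42.3%. Beyond 100 kb lay 738 new regions, or 24.7% (23.1 to 26.2), against 20.9% of all merged and 17.1% (16.5 to 17.7) of constant regions. Early regions more often lay next to constant H3K4me3, although the median gaps of early and late regions, 21448 bp (16189 to 28216) and 28762 bp (26577 to 31273), have overlapping intervals. Of the 304 called at 24 h, 57 lay within 1 kb, or 18.8% (14.5 to 23.6), against 310 of the 2689, or 11.5% (10.3 to 12.8), and the intervals do not overlap. New regions seldom lay beside lost H3K4me3, with 33 within 1 kb, or 1.10% (0.760 to 1.54), against 3.02% of all merged regions.

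**Figure D5:**
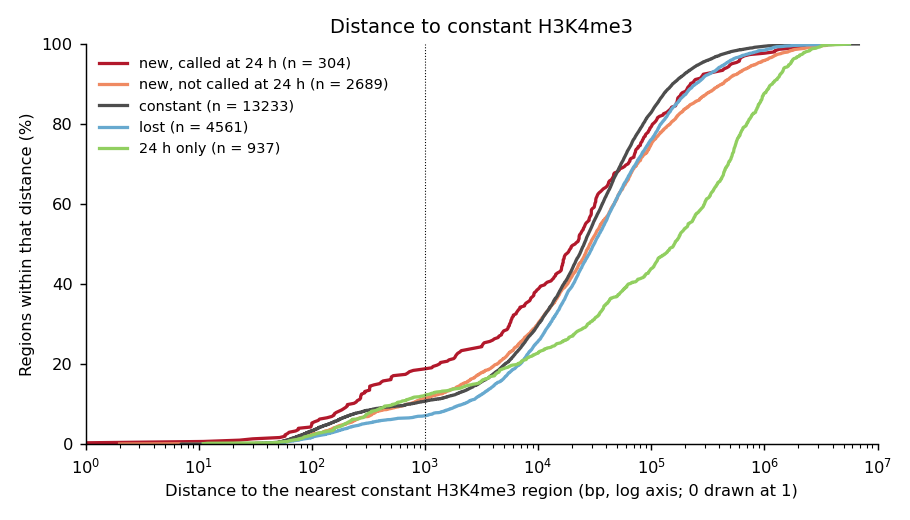
Percent of regions (y axis) within a given distance (x axis, bp, log axis) of the nearest constant H3K4me3 region, for each set of regions; the dotted line marks 1 kb. New regions called at 24 h start higher, at 18.8% within 1 kb, and regions called at 24 h only lie to the right. The late new regions run near the constant ones up to 20 kb and below them at 100 kb, at 74.9% against 82.9%.

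Distance and factor class were only loosely related. Prior binding was found at 70 of the 367 new regions within 1 kb, or 19.1% (15.2 to 23.5), at 23.5% (20.8 to 26.4) of the 914 between 1 and 20 kb, and at 21.1% (19.2 to 23.2) of the 1712 beyond. Binding in 2i only was most frequent between 1 and 20 kb, at 16.2% (13.9 to 18.7), against 10.2% (8.77 to 11.7) beyond 20 kb. H3K4me3 was strongest far out, with median folds of 5.43 (5.35 to 5.60) within 1 kb, 5.58 (5.45 to 5.67) between 1 and 20 kb, and 6.22 (6.16 to 6.30) beyond.

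The strongest new region lay on chromosome 1 from 39711273 to 39714458 (mm9, as are all positions here). It had an H3K4me3 fold of 71.8 at 3 passages and 4.68 at 24 h, held no peak of the 8 factor lists, and lay 76395 bp from constant H3K4me3 and 2980 bp from a serum region. In TKO cells it held a Nanog peak with a fold of 8.50. Next was chromosome 17 from 40630963 to 40632723, with folds of 38.6 at 3 passages and 5.32 at 24 h, 437506 bp from constant H3K4me3. It held Nanog and Sox2 in all 3 conditions and Oct4 in both that were mapped. Its Nanog folds were 29.7 in serum, 21.4 at 24 h and 60.2 at 3 passages, its Sox2 folds 9.23, 13.3 and 8.58, and its Oct4 folds 26.0 and 26.7. In both regions the mark was near the low end of the 24 h list, with −log10 q of 6.19 and 7.32, and far above that of the 3 passage list, with 607 and 328. Folds of separate lists need not be on one scale.

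A pair of regions on chromosome 7, from 52377708 to 52379941 and from 52380108 to 52384300, differed from these in time. Their H3K4me3 folds were already 20.3 and 24.5 at 24 h and 31.9 and 33.4 at 3 passages. Sox2 was called in serum at both, with folds of 4.69 and 5.17. Nanog was called at both at 24 h and at 3 passages, with the same folds of 12.7 and 5.37 at each. A single Nanog peak that meets both regions would be counted at each. Sox2 was also called at 24 h at the second, with a fold of 4.14. In TKO cells Nanog was called at both, with a fold of 15.1. The region on chromosome 16 from 48600864 to 48602306 had folds of 5.70 and 34.1, no factor peak, and lay 9164 bp from constant H3K4me3. On chromosome 6, from 67169736 to 67171935, H3K4me3 had folds of 5.08 at 24 h and 29.6 at 3 passages, and the only peak of the 8 factor lists was Nanog at 3 passages, with a fold of 11.8. With lot 2, Nanog was called there at 24 h with a fold of 8.23.

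Among the late regions the strongest was on chromosome 1 from 162963066 to 162965082. Its fold was 27.7, and no factor peak was called. The regions on chromosome X from 13436373 to 13436926, on chromosome 10 from 75943554 to 75945375 and on chromosome 16 from 93982255 to 93983161, with folds of 25.3, 23.5 and 23.5, held no factor peak either. Another on chromosome X, from 104493469 to 104496714, had an H3K4me3 fold of 26.0 and held Nanog at 3 passages with a fold of 23.7. With lot 2, Nanog was called there in GFP-high serum with a fold of 31.7, so the absence of a serum peak held for the lot 1 list only. Antibody lot and the GFP_high label differ together between these lists and cannot be told apart. A region on chromosome 17, 3195 bp from constant H3K4me3 and spanning 37116144 to 37119919, had an H3K4me3 fold of 21.8. Nanog was called there in all 3 conditions, with folds of 19.04, 24.1 and 14.4, Sox2 in serum only and Oct4 at 24 h only.

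The other leading regions with binding in 2i only were on chromosome 15 from 102758792 to 102765587 and on chromosome 1 from 193751797 to 193754296. The first was the widest new region, at 6796 bp, with H3K4me3 folds of 6.22 at 24 h and 24.4 at 3 passages and Nanog folds of 14.2 and 10.2. The second had an H3K4me3 fold of 16.3 and Nanog folds of 17.2 at 24 h and 8.95 at 3 passages. With lot 2, Nanog was called at the first in TKO cells alone. At the second it was called in GFP-high serum, in KH2 cells at 24 h and in TKO cells, with folds of 11.1, 10.4 and 13.9.

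New regions were spread over all chromosomes, from 9.43% (8.07 to 10.9) of the merged regions on chromosome 7 to 16.8% (14.2 to 19.7) on chromosome 16. Gaps of at most 10 kb joined 538 of them, or 18.0%, into 244 groups. The same grouping was not made for all merged regions, so no clustering particular to new regions can be read from it. The largest group, chosen after its values were seen, held 5 regions on chromosome 8 from 19979560 to 20000871, of which 3 had no factor peak and 2 had one in 2i only. A group of 4 on chromosome 5 from 64319830 to 64327831 had prior binding at 3 regions and binding in 2i only at 1. The wide region on chromosome 15 named above was 1 of 4 between 102750554 and 102768298.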

How the data were processed

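The 14 deposited lists are narrowPeak tables of mm9. BWA 0.5.7, Bowtie 0.12.7 and MACS2 appear, without roles, in the submitters' processing notes. Names of the deposited peaks speak of pooled replicates and a control. For every peak the authors deposited a fold enrichment, −log10 p, −log10 q, an integer score and the offset of its summit, another value that the authors deposited and that was used for the 250 bp measure. The score and −log10 p were not used. Read depth is unknown, because the deposited lists hold no counts, and the selection of the deposited peaks is not stated.

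The labels' molecule for Sox2 libraries is RNA, yet they carry an antibody and their lists hold peaks, so they were treated as ChIP-seq. H3K4me3 peaks were merged at 1 bp of overlap, and a factor was called in a region that its peak met by at least 1 bp. Distances run from edge to edge. Shares carry Clopper-Pearson 95% intervals, medians exact binomial ones. Regions are not replicates and no test was run. The members and lists were chosen with earlier results of these data known. Named regions are the 6 with the highest 3 passage fold in each 24 h class and the 4 highest in each factor class, 14 in all; others are marked. Positions count from 1. The annotation at hand is of GRCm38.p6, so regions were assigned to no gene and no sequence is printed. H3K27me3, RNA and WCE samples were not analysed here. Scripts ran in Python 3.11.15 with pandas 2.3.3 and scipy 1.17.1 and were tested on simulated data.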

Additional observations from a re-analysis of the deposited data

How the results depend on the processing

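No paired analysis was possible because each condition is 1 list of pooled peaks, and for the same reason no replicate could be left out. Of 11 alternatives, 2 were chosen after seeing the data: limiting the serum list to the lowest 3 passage −log10 q, and leaving out new regions within 1000 bp of serum H3K4me3. The number of new regions ran from 2450 to 3478, within 1.5 times of 2993, under all 11. Of 77 values, 56 stayed within 1.5 times (counts) or inside the main interval, but many of these could not move. Factor lists of equal length, summits and Nanog lot 2 change factor calls only. The number of new regions, the share called at 24 h and both distance results were therefore fixed under them. Limiting the 3 passage list to the lowest serum −log10 q changed nothing, since that list starts higher.

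Called at 24 h were 2.44% with a minimum −log10 q of 10, 16.4% with H3K4me3 lists of equal length and 13.8% with the limited serum list. Prior binding was 7.55% by summits, 15.6% with an overlap of 50% and 26.7% with Nanog lot 2. Binding in 2i only was 6.25% by summits, 7.58% with factor lists of equal length and 8.79% with lot 2. Regions without a factor were 86.2% by summits, 72.5% with an overlap of 50%, 71.6% with factor lists of equal length, 64.5% with lot 2 and 63.7% with H3K4me3 lists of equal length. Within 1 kb of constant H3K4me3 lay 11.0% with the minimum of 10, and 0 by construction when peaks up to 1000 bp apart were joined or regions within 1000 bp of serum H3K4me3 were left out. The median distance was 32244 bp with the minimum of 10, 25543 bp with equal H3K4me3 lists, 39406 bp with joined peaks and 37538.5 bp with near regions left out. The cause of the other changes was not tested.

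By overlap, the share of new regions exceeded that of constant regions in 7 of 8 factor lists, all but Nanog at 24 h. It did so in 8 with either kind of equal length or by summits, and in 5 with an overlap of 50%, where Nanog and Sox2 in serum were also lower.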
